A study of Mus musculus with 23 samples.

Results

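Klf2, Klf4, Klf5 and Klf17 encode Krüppel-like zinc finger transcription factors, and 22 of the 16958 listed NR5A2-bound regions belong to these 4 genes. A region was assigned to a gene when, among protein-coding genes of RefSeq (GRCm38.p6, equivalent to mm10), that gene's span was the nearest and lay within 50 kb of the region's midpoint. No measured value entered this assignment, though the genes were chosen with earlier results of these data known. Klf4 had 7 regions, Klf5 had 8, Klf17 had 4 and Klf2 had 3. The authors class 11 of the 22 as accessible and 11 as bound but not accessible, against 48.5% accessible over all regions.

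The 23 ATAC-seq libraries came from mouse embryos at the 8-cell stage. In the maternal-zygotic (mz) series, 8 single embryos labelled mz_NrHet were heterozygous for Nr5a2 and 13 labelled mz_NrKO were knockouts, processed without culture. The heterozygotes are the only controls of that series, and no title states if they carried maternal NR5A2. The labels give dates, but with merged columns no value within a date can be had. In the inducible series, embryos were dissected 30 h after hCG at the early 2-cell stage and cultured for 45 h. A single pool (iNrKO_plus_Tam_NrKO) received 750 nM 4-hydroxytamoxifen for the first 24 h and a single pool (iNrKO_minus_Tam_Nrpp) did not. The driver of the recombinase and the number of embryos in each pool are not given in the sources used here. Without a tamoxifen-treated pool that keeps Nr5a2, drug and deletion cannot be told apart.

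NR5A2 is a nuclear receptor that binds DNA as a monomer at a short extended site. KLF proteins bind GC-rich and CACCC-type sites through zinc fingers at their C terminus. Klf2, Klf4 and Klf5 act redundantly to sustain self-renewal of mouse embryonic stem cells, Klf4 is one of the factors used to reprogram somatic cells, and Klf5 is needed for the inner cell mass and trophectoderm of the blastocyst. Klf17 is known from oocytes and early cleavage embryos, and marks naive pluripotency in human cells. ATAC-seq measures how readily a transposase inserts adapters into DNA, so the values below describe chromatin and not transcripts of these genes.

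Of the 22 regions, 0 lay inside a gene span and 0 overlapped any of the 32851 RefSeq promoter windows, which run from 250 bases before to 50 bases after a start. Windows were given for Klf2, Klf4 and Klf17 and not for Klf5, so overlap with a Klf5 window was not counted. The same counts over all listed regions are not given here, so these counts do not set the Klf regions apart. The nearest listed region was 10.0 kb from the Klf2 window, 6.47 kb from the Klf4 window and 1.72 kb from the Klf17 window. The letters CAAGGTCA and CAAGGCCA (NR5A-type sites) and GGGCGTGGC and GGGTGTGGC (KLF-type sites) were searched in these windows on both strands. Over all windows they occurred in 1.56%, 2.40%, 2.96% and 1.35%. The Klf2 and Klf4 windows, with a GC content of 69.3% and 74.3%, held none of them. The Klf17 window (RefSeq, GRCm38.p6, chr4:117765617-117765916, minus strand, GC content 50.7%) held CAAGGCCA on the opposite strand, from base −28 to −21 counted from the start as 0. It also held GGGTGTGGC from −33 to −25, so the matches overlap. The window is shown because it is the only one of these with an NR5A-type match, and it has no listed region within it. Capitals mark both matches together.
Klf17 promoter window: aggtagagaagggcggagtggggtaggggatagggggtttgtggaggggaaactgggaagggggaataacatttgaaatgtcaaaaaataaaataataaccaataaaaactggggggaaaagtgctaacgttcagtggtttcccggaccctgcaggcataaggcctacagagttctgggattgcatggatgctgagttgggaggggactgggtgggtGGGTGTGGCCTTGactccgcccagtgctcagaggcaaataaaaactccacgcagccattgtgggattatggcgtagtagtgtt

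Each region has 1 merged RPKM value per group, so no value can be set against the spread between embryos. Whole reads were recovered from the values. The heterozygote column held 157 reads over the 22 regions and the mz knockout column 118, while the pools held 454 (untreated) and 278 (treated). A typical (median) Klf region held 6 reads in heterozygotes and 5 in mz knockouts, against 19.5 and 12.5 reads in the pools. Over all regions the medians were 4, 4, 14 and 9 reads in the same order. A single read was worth 0.587, 0.359, 0.163 and 0.170 RPKM in these columns. Intervals are exact 95% intervals and cover counting error only, and each exact binomial test compares 2 merged libraries, with Benjamini-Hochberg adjustment over all 16958 regions.

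Klf4 had the lowest summed ratio of the 4 genes in both series, and Klf17 had a mz ratio above 1. Summed over the 22 regions, accessibility came to 92.2 RPKM in heterozygotes against 42.3 in mz knockouts, a ratio of 0.459 (95% interval 0.358 to 0.586). In the inducible series the sums were 74.1 RPKM untreated and 47.3 RPKM treated, a ratio of 0.638 (0.548 to 0.743). The same ratios over all listed regions were 0.668 (0.663 to 0.674) and 0.694 (0.690 to 0.698). The mz interval of the Klf regions ends below that value, but within 20 kb the mz ratio was 0.681 (0.486 to 0.957), and the inducible interval holds the ratio over all regions. On the scale of log2(RPKM + 1), where changes of weakly accessible regions look smaller than they are, the median difference of the 22 was −0.95 in the mz series and −0.50 in the inducible series. Over all regions it was −0.32 and −0.35. In each series 18 of the 22 (81.8%) had a lower value in the knockout column. The shares were 64.3% (mz) and 74.4% (inducible) of all regions, and 74.8% and 81.4% of all accessible regions. 15 of the 22 (68.2%) were lower in both, against 50.5% of all regions and 62.6% of all accessible regions.

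The test called 1 of the 22 regions lower in mz knockouts, near Klf5, where 1.73% of all regions were called lower. It called 2 of the 22 lower in the treated pool, both near Klf4, where 6.37% of all regions were called lower. It called none of the 22 higher in either series, where 0.0236% and 0.0767% of all regions were called higher. With counts of 1 and 2, these shares do not separate the Klf regions from the background. At an unadjusted exact binomial p under 0.05, 7 of the 22 (31.8%) were lower in mz knockouts and 6 (27.3%) in the treated pool. The shares were 11.9% and 19.7% of all regions, and 19.4% and 27.2% of all accessible regions. Such a count depends on reads, and the median Klf region held more reads than the median of all regions in every column. None of the 22 differed between the series by the exact test of equal ratios, which called 0.0177% of all regions. By that test 2 of the 22 had an unadjusted p under 0.05, as did 747 of all 16958 regions. With a scaling that sets the median log2 ratio to 0, a single Klf4 region kept its call, and with a scaling to equal sums none did. In the authors' deposited classes, 14 of the 22 lose accessibility (41.5% of all regions), 1 gains it (16.9%) and 7 are unchanged.

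**Figure D1:**
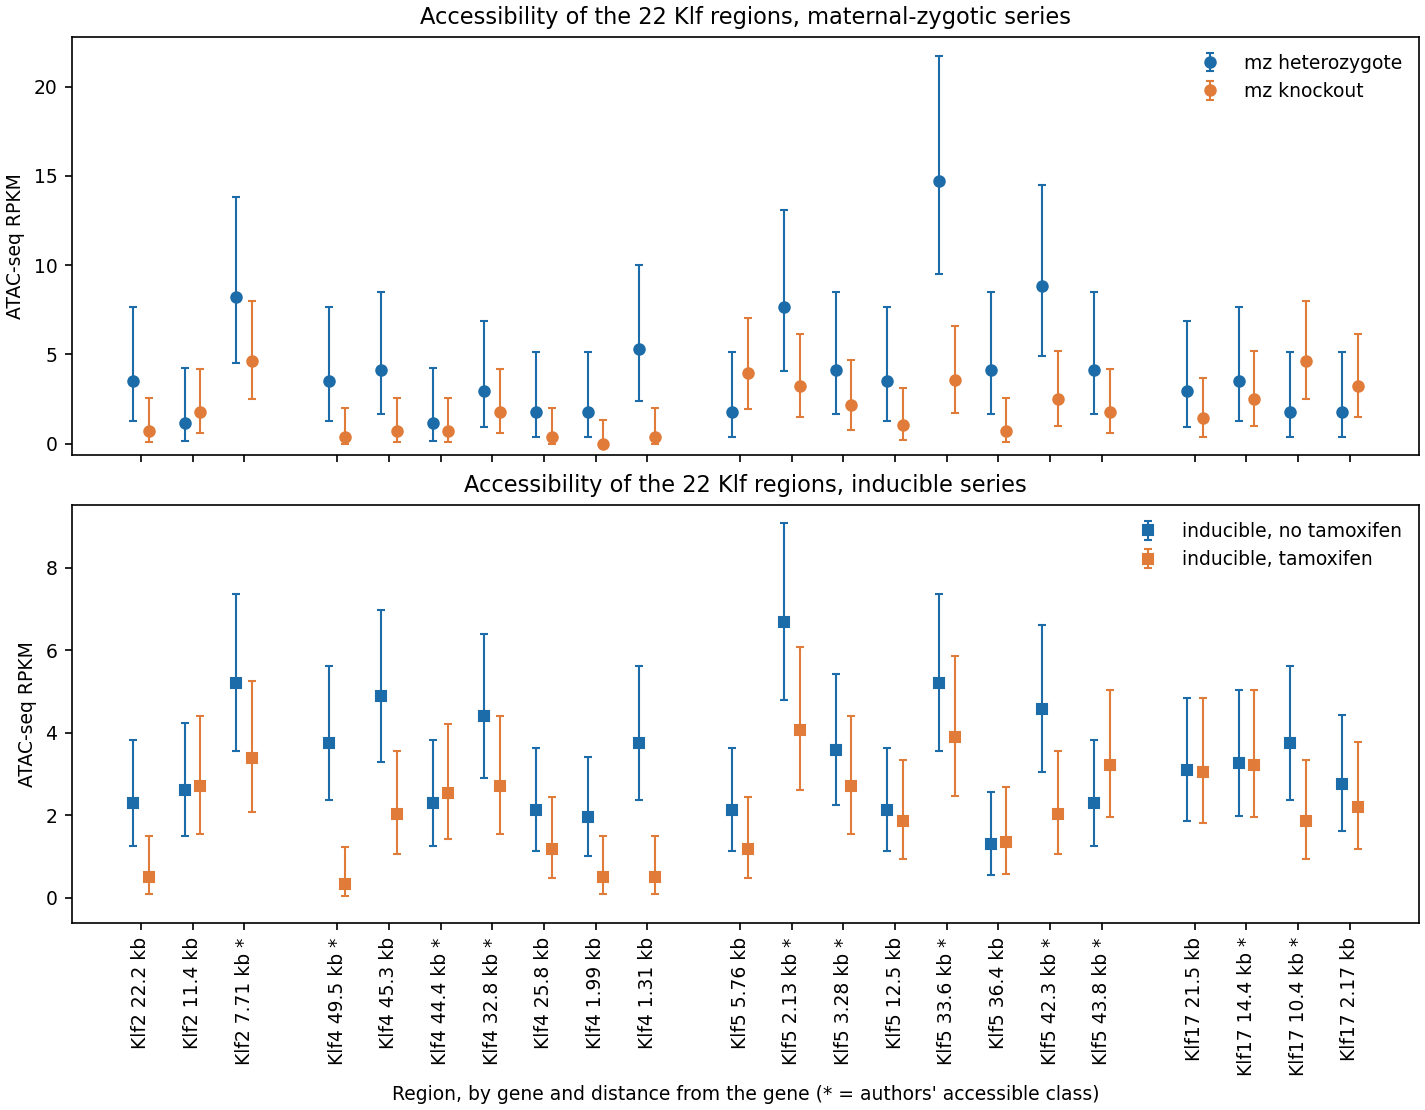
ATAC-seq RPKM of each Klf region in the mz series (upper panel) and the inducible series (lower panel), with exact 95% Poisson intervals of counting error. Regions are ordered by position within each gene and labelled by their distance from it; the heterozygote value of the Klf5 region at 33.6 kb is the highest (14.7 RPKM), and the Klf4 regions at 49.5 kb and 1.31 kb are below 1 RPKM in both knockout columns.

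Klf4 had the lowest ratios of the 4 genes. Its 7 regions (chromosome 4, minus strand, gene at 55527137 to 55532475) all lay past the 3′ end of the gene, from 6.65 to 54.9 kb downstream of its start. Embryonic stem cells are known to use distal enhancers on this side of Klf4. Whether any listed region is one of those was not tested. Summed over the 7 regions, accessibility came to 20.6 RPKM in heterozygotes against 4.30 in mz knockouts, a ratio of 0.209 (0.0989 to 0.413) from 35 and 12 reads. The pools had 23.2 RPKM untreated and 9.87 RPKM treated, a ratio of 0.426 (0.308 to 0.582). Both intervals lie below the ratio over all regions of the same series. The ratios were lower still within 20 kb, where 2 regions gave 0.0509 and 0.179, and scaling to equal sums raised the inducible ratio to 0.614.

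The most distal Klf4 region (55477487 to 55477700, 49.5 kb from the gene, classed as accessible) had 3.52 RPKM in heterozygotes, 0.359 in mz knockouts, 3.75 in the untreated and 0.340 in the treated pool. Its control values were at percentile 44.0 (heterozygotes) and 54.8 (untreated) of the accessible class, and both knockout values were lower. It fell in the pool given tamoxifen, from 23 reads to 2, at a ratio of 0.0907 (0.0104 to 0.367) and an adjusted p of 0.00235 (exact binomial test). The mz ratio was 0.102 (0.00221 to 0.839) from 6 reads and 1 read, with an adjusted p of 0.202 (exact binomial test). Scaled to the median the inducible call had an adjusted p of 0.0239, and scaled to an equal sum 0.0657 (exact binomial tests). The CUT&RUN signal (NR5A2 binding) of this region was 4.06 RPKM, at percentile 48.6 of all regions and the lowest at Klf4. Its authors' ATAC summit lies 641 bases from the motif-centred CUT&RUN summit, farther than the region is long (214 bases). The same holds for the accessible Klf5 regions at 2.13, 3.28 and 42.3 kb, with distances of 387, 576 and 586 bases.

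The Klf4 region closest to the gene (55525696 to 55525959, 1.31 kb past its end) had 5.29 RPKM in heterozygotes, 0.359 in mz knockouts, 3.75 untreated and 0.510 treated. It fell in the pool given tamoxifen, from 23 reads to 3, at a ratio of 0.136 (0.0261 to 0.450) and an adjusted p of 0.00611 (exact binomial test). The mz ratio was 0.0678 (0.00155 to 0.490) from 9 reads and 1 read, and its adjusted p of 0.0538 was just above the threshold (exact binomial test). The authors class it as not accessible, although its control values were at percentile 97.7 (heterozygotes) and 96.8 (untreated) of that class. Its CUT&RUN signal, a measure of NR5A2 binding from an earlier study, was 11.1 RPKM, at percentile 95.6 of all regions. The inducible call had an adjusted p of 0.0645 scaled to the median and 0.110 scaled to an equal sum (exact binomial tests). A neighbour 344 bases away (55524953 to 55525351) had 1.76 RPKM in heterozygotes, 0 in mz knockouts, 1.96 untreated and 0.510 treated. Its 0 reads in mz knockouts have an exact upper limit of 1.32 RPKM, and its 3 reads in heterozygotes are at the floor of 3 reads, so no mz fold is given. The worth of a single read did not vary with region length, so values were not scaled by the listed length of each region. The width over which reads were counted is not given. If it was wide enough, these neighbours share reads, and the Klf4 ratios within 20 kb, which sum them, count some reads more than once.

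The remaining Klf4 regions did not pass the test. The region 45.3 kb from the gene (55481657 to 55481976) had 4.11 RPKM in heterozygotes, 0.717 in mz knockouts, 4.90 untreated and 2.04 treated, and its inducible ratio of 0.417 (0.194 to 0.839) had, by the exact binomial test, an adjusted p of 0.0874. It is classed as not accessible, with an untreated value at percentile 99.3 of that class. The region 44.4 kb away (55482597 to 55482951), separated from it by 620 bases, had 1.17, 0.717, 2.29 and 2.55 RPKM in the same order. These adjoining regions thus had inducible ratios of 0.417 and 1.12 (0.503 to 2.50), with intervals that overlap. The region 32.8 kb away (55493963 to 55494629), with the second highest CUT&RUN signal at Klf4 (10.3 RPKM), had 2.94, 1.79, 4.41 and 2.72 RPKM. The region 25.8 kb away (55501238 to 55501408) had 1.76, 0.359, 2.12 and 1.19 RPKM. Within Klf4, the 4 not accessible regions summed to a ratio of 0.111 (0.0278 to 0.327) for the mz embryos and 0.334 (0.204 to 0.530) for the pools. The 3 accessible regions had 0.376 (0.135 to 0.978) and 0.538 (0.342 to 0.831), with intervals overlapping those of the not accessible regions. All not accessible regions of the table had 0.734 and 0.698.

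**Figure D2:**
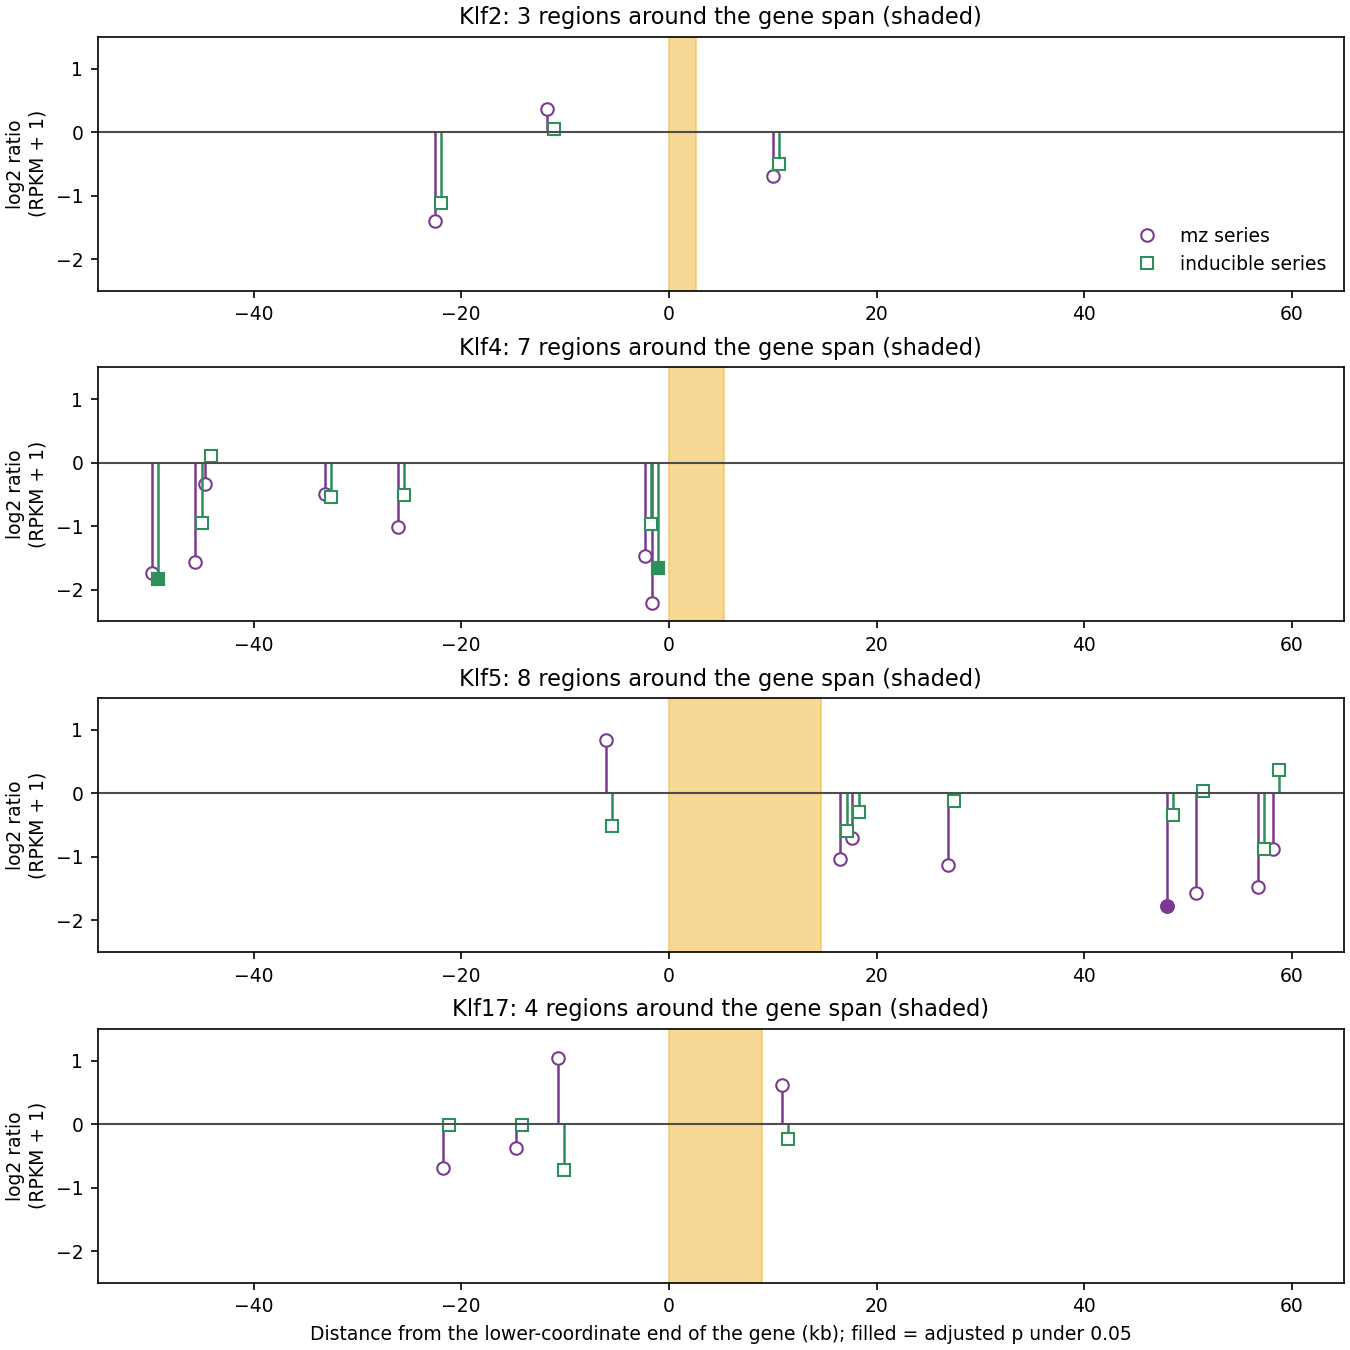
Log2 ratio of knockout over control, on the log2(RPKM + 1) scale, of each region against its distance in kb from the lower-coordinate end of the gene (shaded span), for the mz (circles) and inducible (squares) series, set slightly apart for legibility. Filled symbols passed the exact binomial test at an adjusted p under 0.05; these are 2 Klf4 regions in the inducible series and 1 Klf5 region in the mz series.

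Of the 8 Klf5 regions, 7 (87.5%) had lower values in mz knockouts and 6 (75.0%) in the treated pool. Over all regions these shares were 64.3% and 74.4%, and over all accessible regions 74.8% and 81.4%. In the mz series 1 Klf5 region passed the test, where 1.73% of all regions were called lower. The gene lies on chromosome 14 at 99298691 to 99313412, and its strand is not in the tables used here. 7 of its 8 regions lie beyond the higher-coordinate end. Summed over the 8, accessibility came to 48.8 RPKM in heterozygotes against 19.0 in mz knockouts, a ratio of 0.390 (0.271 to 0.557). The pools had 27.9 RPKM untreated and 20.4 RPKM treated, a ratio of 0.732 (0.574 to 0.929). The interval of the mz ratio ends below 0.668, the ratio over all regions, and that of the inducible ratio holds 0.694, the ratio over all regions there. The mz ratio depended on the window. The 4 regions within 20 kb had 0.611 (0.352 to 1.06). Scaled to equal sums the inducible ratio was 1.05 (0.828 to 1.34), on the other side of 1.

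The most accessible Klf region of the heterozygotes lies 33.6 kb from Klf5 (99346942 to 99347153, classed as accessible, CUT&RUN 8.52 RPKM). It had 14.7 RPKM in heterozygotes, 3.59 in mz knockouts, 5.22 untreated and 3.91 treated. The heterozygote value stood far above the other 3. The region fell in mz knockouts, from 25 reads to 10, at a ratio of 0.244 (0.105 to 0.526) and an adjusted p of 0.0135 (exact binomial test). The pools had a ratio of 0.749 (0.419 to 1.32), and by the exact binomial test the adjusted p was 0.672. The exact test between the series gave an unadjusted p of 0.0155 and an adjusted p of 1.00, so a difference between the series was not shown. The mz call had an adjusted p of 0.125 scaled to the median and 0.387 scaled to an equal sum (exact binomial tests).

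Of the other Klf5 regions classed as accessible, the one 42.3 kb away (99355582 to 99355814) had 8.81 RPKM in heterozygotes, 2.51 in mz knockouts, 4.57 untreated and 2.04 treated. Its ratios were 0.285 (0.0983 to 0.742) and 0.447 (0.207 to 0.907), both knockouts below their controls, with adjusted p = 0.146 and 0.133 (exact binomial tests). Its CUT&RUN signal of 10.9 RPKM was the highest at Klf5. The region 2.13 kb past the gene (99315421 to 99315664) was the most accessible Klf region of both pools. It had 7.64, 3.23, 6.69 and 4.08 RPKM, with ratios of 0.423 (0.159 to 1.07) and 0.610 (0.353 to 1.03). The region 3.28 kb away (99316564 to 99316824) had 4.11, 2.15, 3.59 and 2.72 RPKM. At 43.8 kb (99356956 to 99357379) the values were 4.11, 1.79, 2.29 and 3.23 RPKM, lower in mz knockouts and higher in the treated pool.

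The Klf5 region on the other side of the gene (99292612 to 99293255, 5.76 kb away, not accessible) had 1.76 RPKM in heterozygotes and 3.95 in mz knockouts, and 2.12 untreated and 1.19 treated. Its mz ratio of 2.24 (0.591 to 12.5) rested on 3 and 11 reads, with the heterozygote reads at the floor of 3. The remaining 2 Klf5 regions are not accessible. The region at 12.5 kb (99325705 to 99326026) had 3.52, 1.08, 2.12 and 1.87 RPKM. The region at 36.4 kb (99349745 to 99349968) had 4.11, 0.717, 1.31 and 1.36 RPKM. The next listed Klf5 region, 55.9 kb away and so outside the window, had 0, 1.08, 0 and 0.340 RPKM. The most distant Klf5 region inside the window is the one at 43.8 kb, and over the 4 genes it is the Klf4 region at 49.5 kb.

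Klf2 had ratios close to those over all regions. The gene lies on chromosome 8 at 72319062 to 72321654, plus strand. Its 3 regions summed to 12.9 RPKM in heterozygotes and 7.17 in mz knockouts, a ratio of 0.555 (0.287 to 1.07). The pools had 10.1 RPKM untreated and 6.64 treated, a ratio of 0.656 (0.428 to 0.995). The only accessible one (72329111 to 72329620, 10.3 kb downstream of the start) had 8.22 RPKM in heterozygotes, 4.66 in mz knockouts, 5.22 untreated and 3.40 treated. Its ratios were 0.567 (0.245 to 1.30) and 0.652 (0.353 to 1.17).

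The most strongly bound of the 22 regions lies 22.2 kb upstream of Klf2 (72296696 to 72296938). Its CUT&RUN signal was 17.4 RPKM, at percentile 99.4 of all regions, and the authors class it as not accessible. It had 3.52 RPKM in heterozygotes, 0.717 in mz knockouts, 2.29 untreated and 0.510 treated, low in both knockouts. The ratios were 0.204 (0.0201 to 1.14) and 0.223 (0.0412 to 0.800), with adjusted p = 0.407 and 0.112 (exact binomial tests). The other not accessible region, 11.4 kb upstream (72307474 to 72307832), had 1.17, 1.79, 2.61 and 2.72 RPKM, with no lower value in either knockout. Upstream of Klf2, the pair of not accessible regions thus had inducible ratios of 0.223 and 1.04 (0.488 to 2.23).

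Klf17 was the only one of the 4 genes with a mz ratio above 1. The gene lies on chromosome 4 at 117756659 to 117765666, minus strand. Its 4 regions summed to 9.99 RPKM in heterozygotes and 11.8 in mz knockouts, a ratio of 1.19 (0.641 to 2.27) from 17 and 33 reads. The pools had 12.9 RPKM untreated and 10.4 treated, a ratio of 0.805 (0.567 to 1.14), or 1.16 when scaled to equal sums. Both intervals hold 1, and no Klf17 region passed the test in either series. The mz interval does not overlap that of Klf4 (0.0989 to 0.413) or Klf5 (0.271 to 0.557). The difference between the genes was not tested. Counting every listed region within 50 kb of Klf17, whichever gene is nearest, adds 2 regions and gives 0.785 (0.532 to 1.16), a count made after seeing the data.

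Among the Klf17 regions, the one 19.4 kb downstream of the start (117745970 to 117746592, accessible) had 1.76 RPKM in heterozygotes, 4.66 in mz knockouts, 3.75 untreated and 1.87 treated. Its ratios were 2.65 (0.727 to 14.5) and 0.499 (0.219 to 1.06), neither of which passed the test (adjusted p = 0.592 and 0.267, exact binomial tests), and the exact test between the series gave an unadjusted p of 0.0310 and an adjusted p of 1.00. The mz ratio rested on 3 heterozygote reads, at the floor of 3 reads, and 13 knockout reads. This region is the only one of the 22 in the authors' gaining class. The region 2.17 kb upstream of the start (117767634 to 117768048), the closest of the 22 to any of the 3 known starts, is not accessible and had 1.76, 3.23, 2.77 and 2.21 RPKM. The accessible region 23.4 kb downstream (117741990 to 117742459) had 3.52, 2.51, 3.26 and 3.23 RPKM. The not accessible region 30.5 kb downstream (117735038 to 117735295) had 2.94, 1.43, 3.10 and 3.06 RPKM. These last pairs of untreated and treated values were nearly equal, with ratios of 0.990 and 0.988, the latter with an interval of 0.489 to 1.99.

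**Figure D3:**
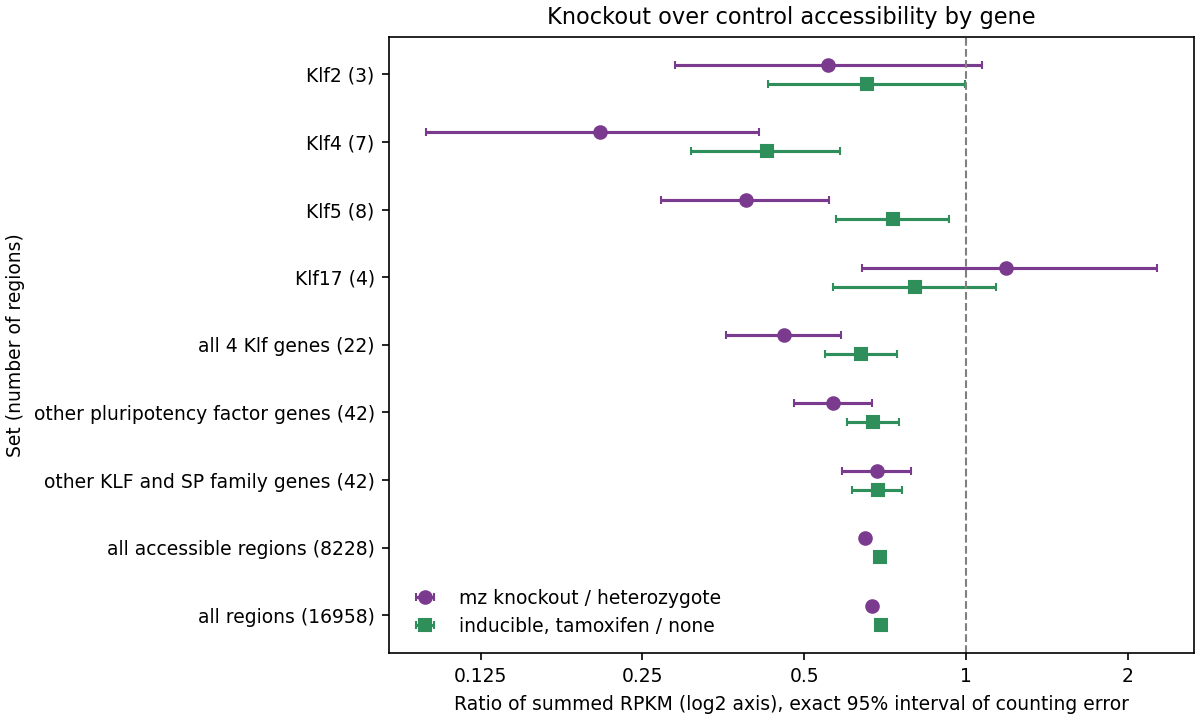
Ratio of summed RPKM, knockout over control, with exact 95% intervals of counting error on a log2 axis, for each Klf gene, the 4 together and the sets they are set beside (number of regions in brackets). Klf4 has the lowest ratio in each series (0.209 and 0.426), and Klf17 is at 1.19 (mz) and 0.805 (inducible).

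Ordered by the mz ratio the genes were Klf4, Klf5, Klf2 and Klf17, and by the inducible ratio Klf4, Klf2, Klf5 and Klf17. The intervals of Klf4 and Klf5, of Klf5 and Klf2 and of Klf2 and Klf17 overlap in the mz series, and in the inducible series so do those of each pair of neighbours in the order. Control levels were alike in the untreated pool, where the mean per region was 3.37 RPKM at Klf2, 3.31 at Klf4, 3.49 at Klf5 and 3.22 at Klf17. In heterozygotes the means were 4.31, 2.94, 6.09 and 2.50 RPKM, highest at Klf5.

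The mz and inducible series share no libraries. Over the 22 regions their log2 ratios had a Pearson r of 0.44 and a Spearman rho of 0.46, against 0.22 and 0.21 over all 16958 regions. These are descriptions over regions that cluster at 4 genes. 10 of the 22 (45.5%) lay below the median log2 ratio of all regions in both series. The share was 28.1% of all regions, 36.5% of all accessible regions and 33.3% of regions at other pluripotency factor genes. Of these 10 Klf regions, 6 belong to Klf4, 2 to Klf2 and 2 to Klf5. The authors moved the CUT&RUN summit onto an Nr5a2 motif in all 22 regions, against 89.3% of all regions. The median CUT&RUN signal was 6.43 RPKM, against 4.15 over all regions, and its Spearman correlation with the log2 ratio over the 22 was −0.25 (mz) and −0.29 (inducible), against −0.16 and −0.21 over all regions.

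**Figure D4:**
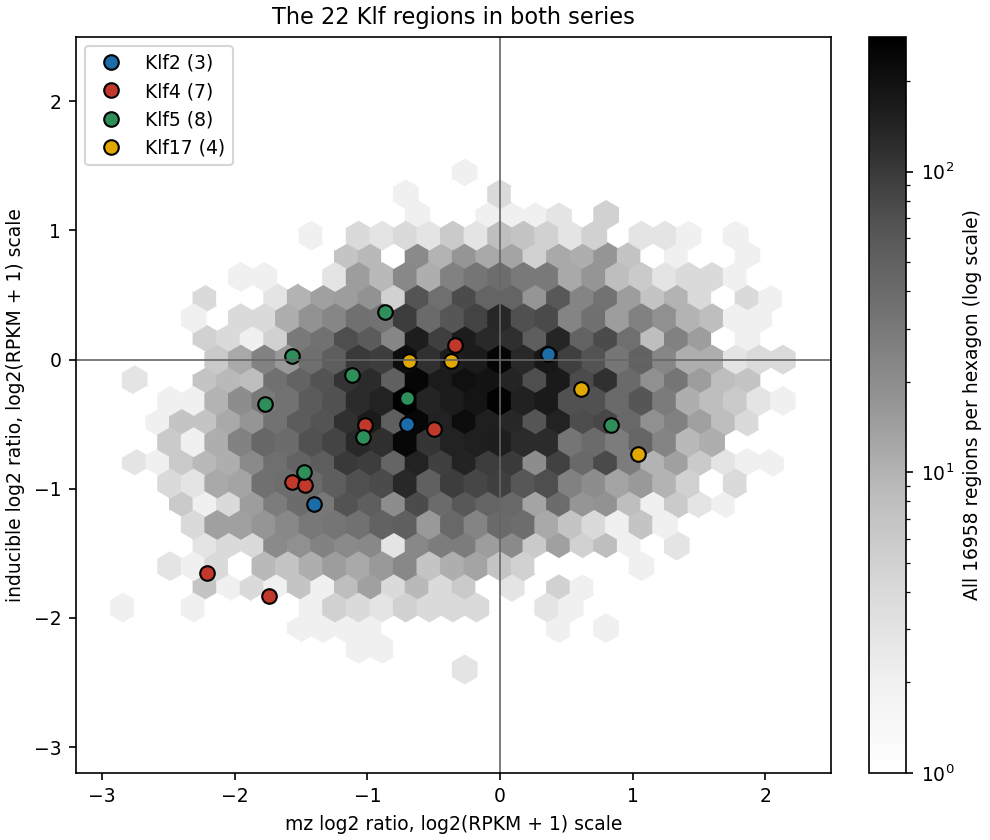
Log2 ratio of the mz series (x axis) against the inducible series (y axis) on the log2(RPKM + 1) scale, for the 22 Klf regions (coloured by gene) over the density of all regions (grey hexagons, log scale). The 2 points lowest on the y axis are the Klf4 regions at 49.5 and 1.31 kb, and the Klf17 points lie at or below 0 on the y axis and on both sides of 0 on the x axis.

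Other genes of the family and of pluripotency gave a frame for these values. The other KLF and SP genes, 12 of 22 of which have a region, had 42 regions with ratios of 0.682 (0.588 to 0.791) for the mz embryos and 0.685 (0.615 to 0.762) for the pools. Their median log2 ratios were −0.20 and −0.47. The test called 2 of the 42 (4.76%) lower in mz knockouts and 1 (2.38%) in the treated pool, and none higher. Over all regions 1.73% and 6.37% were called lower. Those called lower in mz knockouts were a region inside Klf8, with 11.2 RPKM in heterozygotes and 2.15 in knockouts (adjusted p = 0.0191, exact binomial test), and one near Klf9, with 11.2 and 1.79 RPKM (adjusted p = 0.0119, exact binomial test). The region called lower in the treated pool lies 13.9 kb from Klf8, with 5.88 RPKM untreated and 0.510 treated (adjusted p = 5.83e-05, exact binomial test), a lower p than that of either called Klf4 region. Other pluripotency factor genes, 13 of 18 of which have a region, had 42 regions with ratios of 0.566 (0.479 to 0.668) and 0.672 (0.601 to 0.751). Their median log2 ratios were −0.68 and −0.38, with 1 region (2.38%) called lower in each series and none higher. These shares stand against the same 1.73% and 6.37% of all regions. The intervals of the 4 Klf genes together overlap those of the pluripotency set in both series. In the mz series the interval of the 4 Klf genes ends at 0.586, just under the 0.588 where that of the other KLF and SP genes begins, and the difference was not tested.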

How the data were processed

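Per the file headers, NR5A2-bound regions of the deposited table come from published CUT&RUN data, with ATAC-seq and CUT&RUN RPKM values that the authors computed, 1 column per group. Cutadapt, Bowtie2, MACS2 and mm10 are named, without roles, per the submitters' processing notes. The sources used here do not say how embryos were merged, duplicates removed or insertions shifted. The deposited knockout over control ratio equals (knockout + 0.01)/(control + 0.01) RPKM within 5.0e-08 and was not used. In each ATAC-seq column 100% of values are whole multiples (within 0.0001) of 1 step that does not vary with region length, so reads were recovered by division by that step. The values were thus not scaled by the listed length of each region, and the width over which reads were counted is not given. Regions with few reads carry wide intervals.

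Reads of each region were compared by two-sided exact binomial tests (scipy 1.17.1, Python 3.11.15) conditional on the steps and adjusted by Benjamini-Hochberg over 16958 regions (threshold 0.05), the ratios of both series by an exact noncentral hypergeometric test, and summed ratios by exact Clopper-Pearson intervals at 95%. These tests cover counting error only. The binomial test and the test between series were also run on simulated Poisson reads. Those reads had no spread between embryos and no shift common to all regions, so that run cannot speak to either. Full values were set to be given for every region of a gene with up to 6 regions, for the 6 most accessible of others and for called regions; the remaining regions were added after their values were seen. The genes, lists and tests were chosen with earlier results of these data known.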

Additional observations from a re-analysis of the deposited data

How the results depend on the processing

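No paired analysis was possible because the table holds merged columns, and for the same reason no embryo could be left out. Scaling the columns to a median log2 ratio of 0 (shifts of −0.32 and −0.35) left 52 of all regions lower in mz knockouts and 199 in the treated pool, with 7 and 22 higher, and 0 and 1 of the Klf regions lower. Scaling to an equal sum left 14 and 78 lower, with 13 and 37 higher, and Fisher's exact test against the rest of a column gave the same counts. Under both, 0 Klf regions were lower in either series. In a window of 20 kb, or with genes of every type as candidates for the nearest, 0 Klf regions were lower in mz knockouts and 1 in the treated pool. In the 20 kb window the mz ratio was 0.0509 for Klf4, 0.611 for Klf5 and 0.681 for the 4 genes, and the inducible ratio of Klf4 was 0.179. With genes of every type, the mz ratio was 0.0814 for Klf4, 0.611 for Klf5 and 0.630 for the 4 genes, and the inducible ratio of Klf4 was 0.282. These choices leave fewer regions. Scaled to an equal sum, the mz ratio was 0.583 for Klf5 and 0.686 for the 4 genes. The inducible ratio was then 0.614 for Klf4, 1.05 for Klf5 (above 1, interval 0.828 to 1.34), 1.16 for Klf17 and 0.920 for the 4 genes. Of 70 alternatives for ratios, 56 stayed inside the main interval. Some of these could not differ, since the 100 kb window holds the same regions as the main one at Klf2 and Klf17. Wide intervals also count a change of side as inside, such as the Klf17 mz ratio going from 1.19 to 0.785. The median log2 ratios kept their sign at pseudocounts of 0.01 and 0.5 RPKM (−1.22 and −1.07 mz, −0.65 and −0.58 inducible). With only regions of at least 10 reads on average, 1 of 4 remaining Klf regions was lower in mz knockouts and 2 of 19 in the treated pool. Under the same filter 353 of 3131 and 1144 of 10150 of all regions were lower. Such small Klf counts do not separate these regions from that background. The sets of every region within 50 kb, whichever gene is nearest, and the adjusted p of named regions under each setting were added after seeing the data. With a median of 6 and 5 reads per Klf region, the mz columns give wide intervals.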

Other observations

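The 50 kb windows of the Klf genes hold 5 more listed regions whose nearest gene is another one. Near Klf2, a region 47.3 kb away and closer to Ap1m1, a clathrin adaptor gene (chromosome 8, 72271573 to 72271957), had 14.1 RPKM in heterozygotes, 6.10 in mz knockouts, 5.88 untreated and 4.59 treated. Its mz ratio was 0.432 (0.218 to 0.839; adjusted p = 0.162, exact binomial test). Another, 12.7 kb from Klf2 and closer to Eps15l1, an endocytosis gene, had 4.70, 2.51, 4.57 and 2.72 RPKM in the same order. Near Klf17, the region closer to Dmap1, which encodes a chromatin-associated protein, had 9.99, 5.38, 8.81 and 5.79 RPKM. The region closer to Slc6a9, a glycine transporter gene (chromosome 4, 117806361 to 117807445), had 8.81, 5.38, 5.55 and 2.21 RPKM, with an inducible ratio of 0.399 (0.193 to 0.775) whose adjusted p of 0.0523 missed the threshold (exact binomial test). Both were more accessible in the controls than any of the 4 Klf17 regions. The region near Klf5 and closer to Pibf1 had 1.76, 0.717, 1.80 and 0.681 RPKM. All 5 had lower values in both knockout columns, as did 50.5% of all regions and 62.6% of all accessible regions. Which gene any of these 5 regions acts on was not measured.

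The nearest gene changes for 12 of the 22 Klf regions when genes that are not protein-coding count as well. The 4 most distal Klf4 regions then fall to the small nucleolar RNA gene Gm22150, and 4 distal Klf5 regions to the pseudogenes Gm22984 and Gm25130. The called Klf4 region at 49.5 kb lies 8.43 kb from Gm22150, and the called Klf5 region at 33.6 kb lies 5.00 kb from Gm22984.

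Among the 1750 genes with at least 3 regions within 50 kb and reads in every column, Klf4 ranked 17th from the lowest mz ratio of summed RPKM and 166th from the lowest inducible ratio. Klf5 ranked 205th and 1016th, Klf2 595th and 775th, and Klf17 1568th and 1212th. By the distance between pairs of log2 ratios, the genes most like Klf4 were Hmgxb4, Olfr374, Zfp1, Ermp1 and Ano1, at distances of 0.053 to 0.165. Those most like Klf5 were Got1, Ddc, Ubxn4, Plekha6 and Egln1, at 0.031 to 0.072. Pcyt1a, Il6ra, Mpc1, Zbtb10 and Mrpl21 were closest to Klf2, at 0.020 to 0.028, and Pacsin1, Focad, Zmym6, Lamc3 and Sdk1 to Klf17, at 0.019 to 0.060. Within a distance of 0.2 lay 8 genes for Klf4 and 119 for Klf2, and none of these ranks or distances has an error from embryos.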
